A study of Mus musculus with 8 samples.

Results

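Glutathione transferases and peroxidases use the tripeptide glutathione to clear reactive compounds, and 10 of their genes were followed in pressure-loaded mouse ventricles: the transferases Gstm1, Gstm2, Gsta4, Gstk1, Mgst1 and Mgst3, the peroxidases Gpx1, Gpx3 and Gpx4, and Gsr, the reductase that regenerates glutathione. They are 10 of the 18193 genes that had a probe set, a group of short probes read together, annotated to a single gene symbol. Where several probe sets named 1 gene, the brightest by its mean over all arrays was used, and no measured group difference entered that choice. A filter asked for a level over 5 on the log2 scale in 4 or more arrays. All 10 genes passed it, among 9607 genes in all. Ventricular RNA came from 8 male FVB mice aged 8 to 12 weeks, each with the ascending aorta banded for 1 week, which makes the left ventricle pump against a higher pressure. In 4 of them the transcriptional repressor CHF1/Hey2 was overexpressed from the mlc2v promoter, which is active in ventricular heart muscle cells, and 4 were wild type. Both groups were banded, so the response to banding has no comparison here. Each mouse gave 1 Affymetrix array. Values are log2 expression after GCRMA, so a difference of 1 is a doubling. Whole ventricle was measured, where fewer cells of a type and less RNA per cell cannot be told apart.

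Glutathione transferases join glutathione to electrophiles such as the aldehydes left by lipid peroxidation, and the microsomal forms do so in membranes. Glutathione peroxidases reduce hydrogen peroxide and lipid hydroperoxides at a selenocysteine in most mammalian members, and the oxidised glutathione they leave is returned to its reduced form by the reductase with NADPH. Many genes of the family are known targets of the transcription factor NRF2, which binds antioxidant response elements. Heart muscle, with its dense mitochondria, depends on this system to hold peroxides low.

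Of the 8 arrays, 2 stood apart from the rest. In transgenic replicate 2, 37.2% of the 9607 genes lay more than 1 log2 unit from the median of the other arrays, and in transgenic replicate 3 it was 9.27%, against 0.749% to 1.55% in each of the remaining 6. The probe set of Hey2 lay between 5.70 and 6.26 in the arrays labelled transgenic and between 5.68 and 6.76 in wild type (exact two-sided permutation p = 0.771), so it gave no check of the labels, and whether it reads the transgene is not known. Heart muscle was present in all arrays: all 9 listed cardiomyocyte markers were measured, with Myl2, the ventricular myosin light chain, at 15.08 or more. Their mean was 14.77 in transgenic replicate 2 and 15.15 to 15.25 in the others. Of the markers of other tissues, 0 of 6 adipocyte, 0 of 5 lymphocyte and 0 of 4 hepatocyte genes passed the filter. The 3'-to-5' difference of the Gapdh control probes, a sign of RNA quality, lay between -0.28 and -0.11 in all arrays, and that of beta-actin between 0.62, in transgenic replicate 2, and 1.21. No batch was given in the sources used here.

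No glutathione gene passed the test between banded transgenic and banded wild-type hearts. With limma and Benjamini-Hochberg adjustment over all 9607 genes at 0.05, 0 of the 10 were called (0% of all genes were), and their adjusted p-values lay between 0.813 and 0.958. At an unadjusted limma p under 0.05 there was 1, Gstm1, against 1.59% of all genes (1.22% higher), and limma with array weights called 0 of the 10. The means of 9 genes were higher in the arrays labelled transgenic, as were those of 57% of all genes, and Gpx3 had the lower mean. The median difference of the 10 was 0.33, and that of all genes was 0.06. All 4 listed atrial markers were also measured, 3 with a higher mean in the arrays labelled transgenic, 1 of them at an unadjusted limma p under 0.05 and 0 called. Their median difference was 0.65, and their summed log2 levels ran from 45.3 to 47.8 in those arrays and from 43.8 to 46.6 in the wild type. Their part in the differences of the 10 genes was not tested. The 6 transferases had a median difference of 0.42 and ranged from 0.29 to 0.58, whereas the 3 peroxidases lay at 0.05, -0.11 and 0.20. In none of the 10 genes did the groups separate completely, which happened in 2.48% of all genes (2% higher and 0.479% lower). Differences above 0.3 were found for 5 of the 10, Gstm1, Gstm2, Gstk1, Mgst1 and Mgst3, and for 18.2% of all genes.

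**Figure D1:**
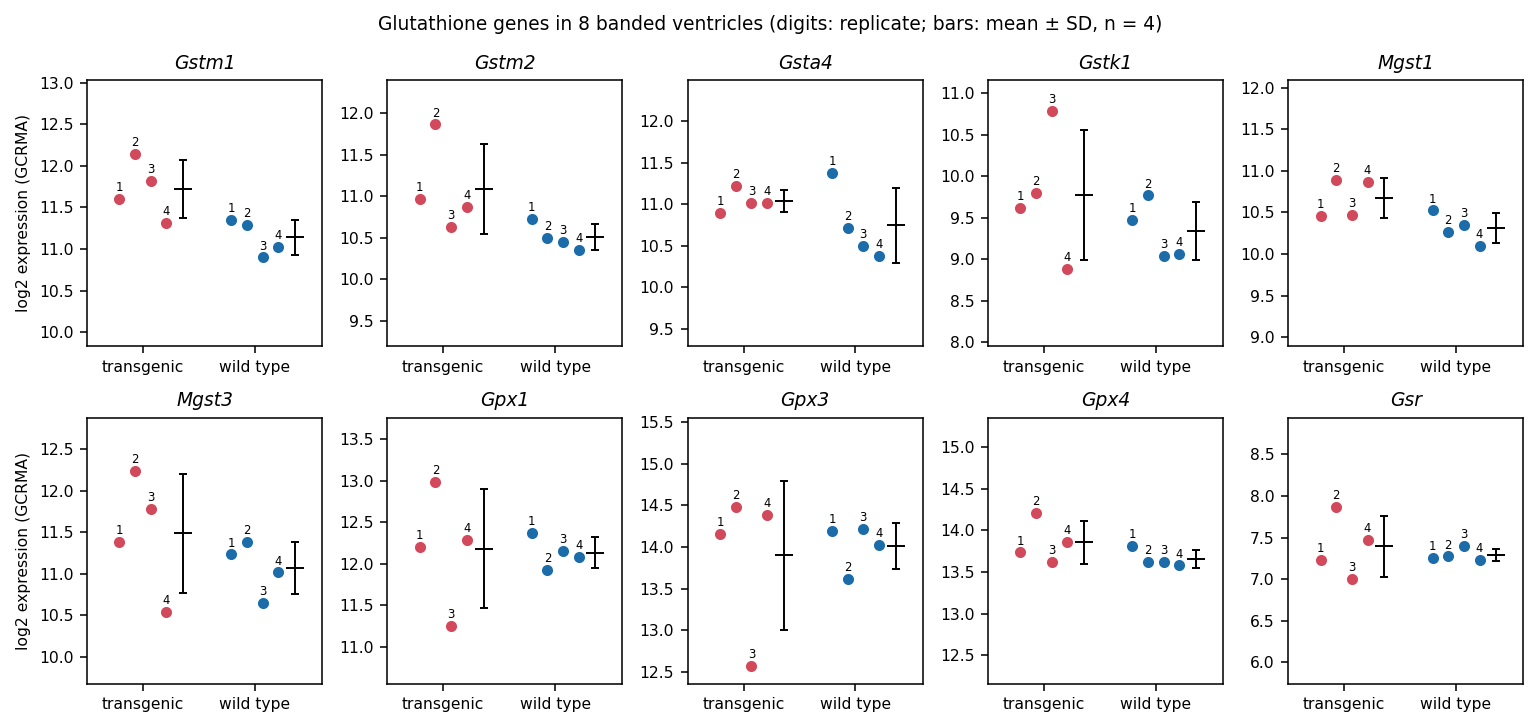
Log2 expression of each gene in each array (vertical axis, log2 units, with the same span in every panel) for 4 transgenic and 4 wild-type mice; digits give the replicate and bars the mean ± SD. Transgenic replicate 2 is the highest array for 8 genes, and transgenic replicate 3 is the lowest for Gpx1, Gpx3 and Gsr and the highest for Gstk1.

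The cytosolic transferases of the mu class, Gstm1 and Gstm2, showed the largest differences of the group. Gstm1, which conjugates glutathione to a wide range of electrophiles, was 11.60, 12.15, 11.82 and 11.32 in transgenic replicates 1 to 4 and 11.35, 11.29, 10.90 and 11.03 in wild-type replicates 1 to 4. Only transgenic replicate 4 lay inside the wild-type range, near its upper end. The means were 11.72 ± 0.35 and 11.14 ± 0.21 (SD, n = 4 each). This is a difference of 0.58 (SE 0.216), or 1.49-fold with a 95% confidence interval of 1.06 to 2.10. It did not pass (limma adjusted p = 0.813, unadjusted p = 0.0262), and the exact two-sided permutation p was 0.0571, where 4 against 4 mice can give 0.0286 at the smallest. The p of Gstm1 was the 48th smallest of the 9607 genes.

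Gstm2, its neighbour in the mu-class gene cluster, was 10.97, 11.86, 10.63 and 10.87 in transgenic replicates 1 to 4 and 10.72, 10.49, 10.45 and 10.35 in the wild type. Again 3 transgenic arrays lay above every wild-type array, but here the one inside the wild-type range was replicate 3. Gstm2 averaged 11.08 ± 0.54 and 10.50 ± 0.16 (SD, n = 4 each) and differed by 0.58 (SE 0.269; limma adjusted p = 0.813; exact permutation p = 0.0571). Without transgenic replicate 2 the differences were 0.44 for Gstm1 and 0.32 for Gstm2. Both had an unadjusted limma p under 0.05 there (0.0329 and 0.0484, with an adjusted p of 0.944 each), as did 2.41% of all genes. For Gstm2 the value therefore depended more on that array than for Gstm1. Array weights gave that array the least weight, 0.052, and transgenic replicate 1 the most, 6.62. Transgenic replicates 3 and 4 had 0.36 and 0.96, so the weighted transgenic mean rested mainly on replicate 1. With these weights the adjusted limma p was 0.215 for Gstm1 and for Gstm2, the lowest of any alternative, and it ran up to 1.00 over the others. With single arrays left out, the unadjusted limma p ran from 0.0109 to 0.0763 for Gstm1 and from 0.0270 to 0.130 for Gstm2.

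Mu-class genes resemble each other closely, and probes of one can bind transcripts of another, so the levels of Gstm1 and Gstm2 are uncertain to that extent. Gstm1 was also read by a pair of probe sets that Affymetrix marks with _x_at as open to such binding. They differed by 0.60 and 0.49. In the brighter of them the groups separated, with the lowest transgenic array at 11.32 and the highest wild-type array at 11.30. The exact two-sided permutation p of 0.0286 is the value that any such separation gives. Groups separated in 2.48% of all genes. The remaining Gstm1 probe set stayed between 2.29 and 2.39 in all 8 arrays, at the floor of the scale.

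The upstream sequences of Gstm1 and Gstm2, the 2 genes with the largest differences, and of Mgst1 are shown, since they are read against the motifs named after them. All 3 come from RefSeq on GRCm38.p6, 5′ to 3′ on the gene's own strand, and end at the base before an annotated transcript start. Gstm1 lies at chr3:108017819-108018068 (minus strand), Gstm2 at chr3:107986421-107986670 (minus strand) and Mgst1 at chr6:138140277-138140526 (plus strand). Capitals mark the motif matches.
Gstm1: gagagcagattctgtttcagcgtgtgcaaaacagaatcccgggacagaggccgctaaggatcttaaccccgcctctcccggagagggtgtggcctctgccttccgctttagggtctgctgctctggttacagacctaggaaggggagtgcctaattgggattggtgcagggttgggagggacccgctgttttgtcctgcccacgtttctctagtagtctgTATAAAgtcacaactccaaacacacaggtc
Gstm2: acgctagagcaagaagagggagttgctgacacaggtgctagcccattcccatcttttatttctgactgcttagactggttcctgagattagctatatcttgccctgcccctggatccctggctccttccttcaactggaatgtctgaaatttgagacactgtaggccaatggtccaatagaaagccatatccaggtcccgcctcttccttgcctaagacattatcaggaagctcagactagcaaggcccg
Mgst1: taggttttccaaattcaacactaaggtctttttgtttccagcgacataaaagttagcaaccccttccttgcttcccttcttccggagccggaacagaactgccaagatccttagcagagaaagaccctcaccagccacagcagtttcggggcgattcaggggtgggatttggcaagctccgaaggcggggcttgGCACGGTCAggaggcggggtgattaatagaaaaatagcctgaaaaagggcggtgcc

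Motifs were searched on both strands of all 300-base windows, which run from 250 bases before a start to 50 after it. RefSeq promoter windows were at hand for 8 of the 10 genes, 13 windows in all, since some genes have several starts. The core of the antioxidant response element, TGACNNNGC, was in 1 of the 13 windows, the printed one of Mgst1. There GCACGGTCA on the printed strand begins 56 bases before the start. The core was in 12.4% of 32851 windows of all genes. Letters of the E-box, to which hairy-related repressors such as HEY2 can bind, were searched in both common forms. The form CACGTG was in 0 of the 13 windows and 7.15% of all windows, whereas CACGCG was in 1, from a start of Gpx4, and 9.27% of all. TATAAA was in 1 of the 13 windows, the printed one of Gstm1, 30 bases before the start, and in 13.6% of all windows. The other Gstm1 window, from a start further upstream, held none of the 4 motifs. A match here is a run of letters and does not show that a factor binds.

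Gsta4 and Mgst1 handle products of lipid peroxidation: the alpha-class enzyme made by Gsta4 is known for conjugating 4-hydroxynonenal, and Mgst1 is a membrane-bound transferase that can also reduce lipid hydroperoxides. Gsta4 was 10.90, 11.23, 11.02 and 11.02 in transgenic replicates 1 to 4 and 11.38, 10.72, 10.50 and 10.38 in wild-type replicates 1 to 4. It was the gene whose arrays labelled transgenic lay closest together, and every one of them lay within the wild-type range, which wild-type replicate 1 set at its upper end. Group means of 11.04 ± 0.14 and 10.75 ± 0.45 (SD, n = 4 each) differed by 0.29 (SE 0.236; limma adjusted p = 0.813; exact permutation p = 0.229). Without wild-type replicate 1 the difference was 0.51, and without wild-type replicate 4 it was 0.17.

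Mgst1 was 10.46, 10.89, 10.47 and 10.87 in transgenic replicates 1 to 4, against 10.53, 10.27, 10.35 and 10.10 in the wild type. Replicates 2 and 4 lay above every wild-type array and replicates 1 and 3 below the highest of them. The means of Mgst1 were 10.67 ± 0.24 and 10.31 ± 0.18 (SD, n = 4 each). Their difference of 0.36 (SE 0.182; limma adjusted p = 0.813; exact permutation p = 0.0857) lay between 0.29 and 0.43 whichever single array was left out, and it was 0.35 without both transgenic replicates 2 and 3.

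Gstk1 and Mgst3 spread most among the transferases in the arrays labelled transgenic. Gstk1, the kappa-class transferase of mitochondria and peroxisomes, was 9.62, 9.80, 10.79 and 8.88 in transgenic replicates 1 to 4 and 9.48, 9.77, 9.04 and 9.07 in the wild type. Replicate 3 was the highest of all 8 arrays and replicate 4 the lowest. The means were 9.77 ± 0.78 and 9.34 ± 0.35 (SD, n = 4 each), so the difference of 0.43 (SE 0.382; limma adjusted p = 0.813; exact permutation p = 0.429) was smaller than the transgenic SD. Without transgenic replicate 3 it was 0.10, and without replicate 4 it was 0.73.

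Mgst3, a microsomal transferase with peroxidase activity, was 11.39, 12.24, 11.78 and 10.54 in transgenic replicates 1 to 4 and 11.23, 11.38, 10.65 and 11.02 in the wild type. Replicate 4 lay below every wild-type array, as it did for Gstk1, and the other 3 lay above them all. Mgst3 averaged 11.49 ± 0.72 and 11.07 ± 0.32 (SD, n = 4 each) and differed by 0.42 (SE 0.354; limma adjusted p = 0.813; exact permutation p = 0.314). Mgst3 differed by 0.17 without transgenic replicate 2 and by 0.73 without replicate 4. Without both replicates 2 and 3, Gstk1 and Mgst3 had differences of -0.086 and -0.11, so the sign of each rested on those arrays. Alas2, the haem enzyme of red-cell precursors and the 1 of 5 listed erythroid markers that passed the filter, was 8.63 in transgenic replicate 3, 8.58 in replicate 2 and 7.59 in replicate 1. It was lowest in replicate 4, at 5.67, and lay between 6.93 and 8.05 in the wild type. Its part in the spread of Gstk1 and Mgst3 was not tested.

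Among the peroxidases, Gpx1 and Gpx3 parted transgenic replicates 2 and 3 most widely. Gpx1, the abundant cytosolic and mitochondrial peroxidase, was 12.21, 12.99, 11.26 and 12.29 in transgenic replicates 1 to 4 and 12.37, 11.93, 12.15 and 12.09 in the wild type. Replicate 2 lay above and replicate 3 below all other arrays, while replicates 1 and 4 sat within the wild-type range. Gpx1 averaged 12.19 ± 0.71 and 12.13 ± 0.18 (SD, n = 4 each) and differed by 0.051 (95% interval from -0.71 to 0.81; limma adjusted p = 0.958; exact permutation p = 0.829). That interval runs from 0.611-fold to 1.76-fold, so it holds values on both sides of no change.

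Gpx3, the secreted plasma peroxidase, was 14.15, 14.48, 12.57 and 14.39 in transgenic replicates 1 to 4 and 14.20, 13.62, 14.22 and 14.02 in the wild type. Only replicate 3 lay far down, at -1.44 from the wild-type mean, and the other 3 lay 0.14 to 0.47 above it. Gpx3 averaged 13.90 ± 0.90 and 14.01 ± 0.28 (SD, n = 4 each), and its difference was -0.11 (SE 0.413; limma adjusted p = 0.921; exact permutation p = 0.943). Without transgenic replicate 3 the differences of Gpx1 and Gpx3 were 0.36 and 0.33 (limma adjusted p = 0.603 each), and without replicate 2 they were -0.22 and -0.31 (adjusted p = 0.944 and 0.952). With replicates 2 and 3 both left out, the differences of Gpx1 and Gpx3 were 0.11 and 0.26. Among these choices each difference was negative only with replicate 3 kept.

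Of the lists of cells other than heart muscle, those of fibroblasts, macrophages and smooth muscle were lowest of all 8 arrays in transgenic replicate 3. The endothelial list was not. The mean log2 level of the 8 fibroblast markers was 11.06 in that array, 12.23 to 12.57 in the other 3 labelled transgenic and 12.33 to 12.58 in the wild type. For the 8 macrophage markers it was 8.92, against 9.60 to 10.46 and 9.50 to 10.09. The 6 smooth muscle markers averaged 10.65, against 11.44 to 11.65 and 11.29 to 11.61. Not every marker was low: Dpt, Cd68, Myh11 and Acta2 lay within the wild-type range in transgenic replicate 3, and Cd163 lay above it. The rest of these lists lay below every wild-type array in transgenic replicate 3. The 7 endothelial markers averaged 10.01 there, within the wild-type range of 9.78 to 10.33. The summed log2 levels ranged from 88.5 to 100.6 in the arrays labelled transgenic and from 98.6 to 100.7 in the wild type for fibroblasts, and from 71.3 to 83.7 and from 76.0 to 80.7 for macrophages. Of these markers, all were measured and 0 were called. Their part in the low Gpx1 and Gpx3 values was not tested.

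The promoter windows of Gpx1 and Gpx3, the pair that was lowest together in transgenic replicate 3, held none of the 4 motifs. They lie at chr9:108338830-108339079 and chr11:54902604-54902853 on the plus strand of GRCm38.p6, printed from RefSeq as above, and are shown so that the pair can be compared with the transferases.
Gpx1: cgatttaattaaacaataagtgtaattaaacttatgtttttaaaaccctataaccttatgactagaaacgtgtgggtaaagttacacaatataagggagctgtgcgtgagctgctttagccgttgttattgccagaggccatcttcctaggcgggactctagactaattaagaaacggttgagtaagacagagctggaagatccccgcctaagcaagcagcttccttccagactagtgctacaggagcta
Gpx3: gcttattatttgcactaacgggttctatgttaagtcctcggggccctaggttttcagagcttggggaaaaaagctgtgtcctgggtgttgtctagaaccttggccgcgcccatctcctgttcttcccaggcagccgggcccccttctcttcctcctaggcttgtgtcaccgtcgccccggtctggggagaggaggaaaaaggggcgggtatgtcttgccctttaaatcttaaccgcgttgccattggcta

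Gpx4 and Gsr varied least in the wild type. Gpx4, the phospholipid hydroperoxide peroxidase that guards membranes and is the key brake on ferroptosis, was 13.74, 14.21, 13.62 and 13.86 in transgenic replicates 1 to 4 and 13.81, 13.62, 13.62 and 13.58 in the wild type. Replicates 2 and 4 lay above the wild-type range and the other 2 within it. Gpx4 averaged 13.86 ± 0.25 and 13.66 ± 0.11 (SD, n = 4 each) and differed by 0.20 (SE 0.175; limma adjusted p = 0.813; exact permutation p = 0.229), or by 0.080 without transgenic replicate 2. A further Gpx4 probe set, an _x_at set, differed by 0.22.

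Gsr was 7.23, 7.87, 7.01 and 7.47 in transgenic replicates 1 to 4 and 7.26, 7.27, 7.40 and 7.23 in the wild type. Replicates 2 and 4 lay above the wild-type range and replicate 3 below it. Gsr averaged 7.40 ± 0.37 and 7.29 ± 0.07 (SD, n = 4 each) and differed by 0.11 (95% interval from -0.36 to 0.57; limma adjusted p = 0.861; exact permutation p = 0.686). Without transgenic replicate 2 it was -0.051. The other Gsr probe set differed by 0.32, where transgenic replicate 2 was at 7.39 and the rest of that group from 6.42 to 6.51. Altogether 17 probe sets were annotated to the 10 genes, and 14 of them passed the filter. The 3 that did not, 1 each of Gstm1, Mgst1 and Mgst3, lay at 2.39 or below in every array.

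Read array by array, the group had a different shape in each transgenic heart. In transgenic replicate 2, 9 of the 10 genes lay above all 4 wild-type arrays, all but Gsta4, but so did 52% of all genes. Its median deviation from the wild-type mean was 0.79 for the 6 transferases and 0.55 for the 3 peroxidases. In replicate 3 the transferases and peroxidases parted: 3 transferases (Gstm1, Gstk1 and Mgst3) lay above all wild-type arrays, where 29.8% of all genes did, and Gpx1, Gpx3 and Gsr lay below them, where 33.5% did. The medians there were 0.47 for the transferases and -0.88 for the peroxidases. Replicate 1 had 3 genes above the wild-type range (19.8% of all genes) and 0 below, with medians of 0.30 and 0.077. In replicate 4, 5 genes were above (26.5%) and 2, Gstk1 and Mgst3, below (9.12%), with medians of 0.23 and 0.20. The median deviation of all genes was 0.03, 0.29, -0.02 and 0.07 in replicates 1 to 4. It was thus highest in transgenic replicate 2, although 33.5% of all genes lay below all wild-type arrays there. The transferases had a median above that of all genes in each of the 4, but wild-type replicate 1, at 0.21, lay close to the lowest of theirs, at 0.23.

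**Figure D2:**
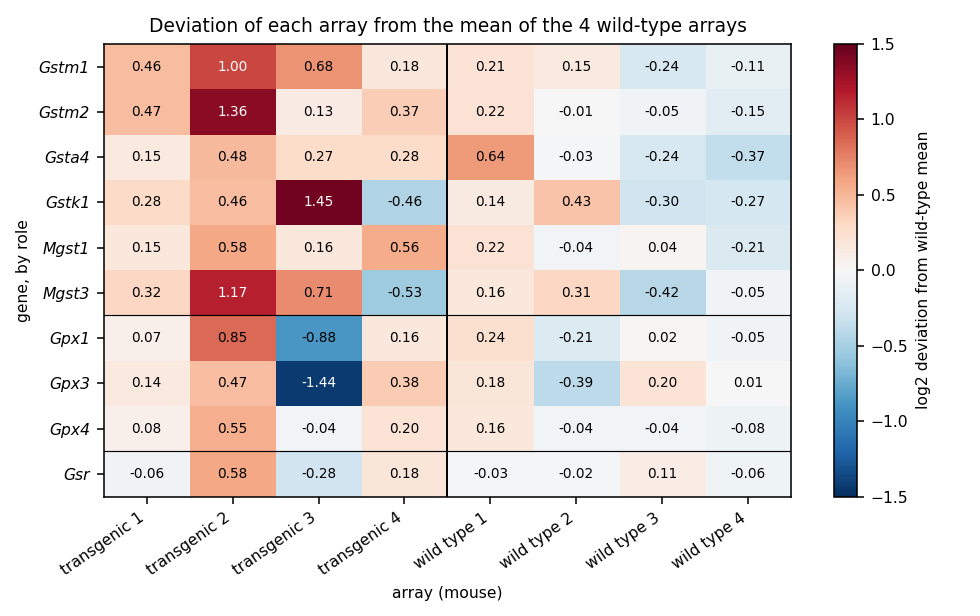
Deviation of each array from the mean of the 4 wild-type arrays, in log2 units, for each gene (rows, by role) and array (columns). Transgenic replicate 2 is above 0 in every row, whereas transgenic replicate 3 runs from 1.45 for Gstk1 to -1.44 for Gpx3.

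Leaving out the arrays that stand apart changed sizes and some signs, and 0 of the 10 genes were called in any of these fits. With all 8 arrays 9 of the 10 means were higher, without transgenic replicate 2 there were 7 (all genes, 55.9%), without replicate 3 all 10 (60.6%), and without both 8 (65.3%). The median difference of the 10 was 0.20 without replicate 2, 0.32 without replicate 3 and 0.18 without both, while that of all genes was 0.03, 0.12 and 0.05. Without both arrays Gstm2 differed by 0.42 (95% confidence interval 0.09 to 0.74), Mgst1 by 0.35 (-0.05 to 0.76) and Gstm1 by 0.32 (-0.08 to 0.72). None of them passed (limma adjusted p = 1.00 each). In that fit 1 of the 10 genes, Gstm2, had an unadjusted limma p under 0.05, as did 1.95% of all genes. For Gstm1, Gstm2, Gsta4, Mgst1 and Gpx4 the sign was positive under all 4 choices of arrays.

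**Figure D3:**
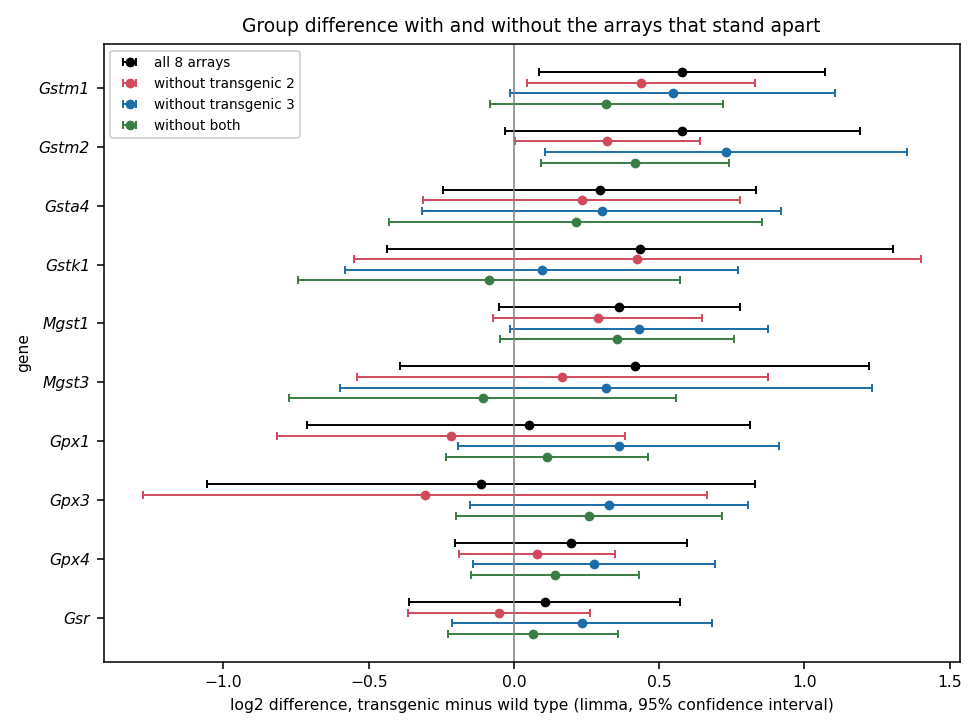
Difference of the group means (horizontal axis, log2 units, transgenic minus wild type) with limma's 95% confidence interval, for all 8 arrays and without transgenic replicate 2, replicate 3 or both. The points of Gstm1, Gstm2, Gsta4, Mgst1 and Gpx4 stay to the right of 0 under each choice. Those of Gstk1, Mgst3, Gpx1, Gpx3 and Gsr change sides.

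The wider spread among arrays labelled transgenic was not particular to these genes. The SD was larger in the transgenic than in the wild-type group for 9 of the 10, with Gsta4 the exception, and for 89.1% of all genes. Without transgenic replicate 2 it was larger for 9 of 10 and for 63.6% of all genes, and the median SD of the 10 was 0.24, against 0.20 in the wild type.

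Further genes of glutathione metabolism were read from a list of 63, of which 59 had a probe set of their own and 46 passed the filter. With limma, 0 were called higher and 0 lower, and 1, Gstt1, had an unadjusted p under 0.05, against 1.59% of all genes. The means of 30 were higher and of 16 lower, with a median difference of 0.11. The further transferases lay highest, with 8 of 9 means higher and a median of 0.49. Gstt1, a theta-class transferase, was 7.03, 7.64, 7.15 and 6.72 in transgenic replicates 1 to 4 and 6.71, 6.68, 5.91 and 6.17 in the wild type. It was the only one of the 46 whose groups did not overlap, with 6.72 as its lowest transgenic and 6.71 as its highest wild-type array, and 2.48% of all genes had such groups. The Gstt1 difference of 0.77 (SE 0.265; limma adjusted p = 0.813) was 0.51 without both transgenic replicates 2 and 3. Gstt2, a relative at the low end of the scale, was above 5 in 3 transgenic arrays and 1 wild-type array, so it passed the filter mainly through the group in which it was higher. Its difference of 0.67 is given as a description, and it was 0.43 without transgenic replicate 1 and 1.25 with array weights. Without Gstt2, a choice made after its values were seen, 7 of 8 means of the further transferases were higher and their median was 0.37. The glutaredoxins, which use glutathione to reduce protein disulphides, had 3 of 3 means higher, with Glrx at 0.39 (SE 0.187).

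For the other branches of the pathway, synthesis and cystine supply had 3 of 4 means higher and a median difference of 0.06, NADPH supply 5 of 5 and 0.10, and breakdown 4 of 8 and 0.04. The glyoxalases had 2 of 2 means higher with a median of 0.22, and transport 2 of 3 with 0.18. The further peroxidases had 0 of 2 higher, with a median of -0.21. The 10 NRF2 regulators and targets, pooled whichever way each acts, had 3 means higher and 7 lower, with a median of -0.08. Among them Nqo1 and Hmox1, common readouts of NRF2 named after their values were seen, differed by 0.09 and -0.09. Gclc and Gclm, the subunits of the enzyme that limits glutathione synthesis and part of the synthesis list, were also named after their values were seen and differed by 0.02 and -0.17. The smallest p-values on the lower side belonged to Gpx8, a peroxidase of the endoplasmic reticulum, at -0.33, Slc25a40, a mitochondrial carrier linked to glutathione import, at -0.39, and Mafg, a small partner of NRF2, at -0.20. Without transgenic replicate 2 Slc25a40 differed by 0.0013, and without both replicates 2 and 3 Gpx8 differed by -0.029. The difference between transferases and the other branches was not tested.

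**Figure D4:**
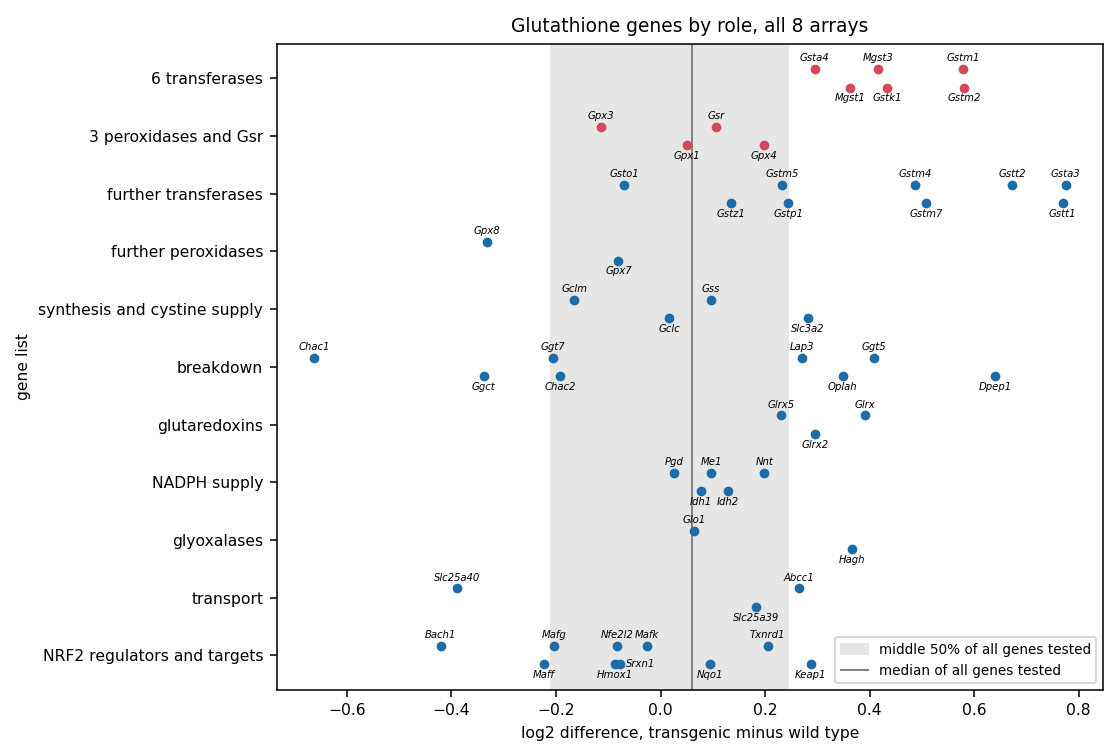
Log2 difference, transgenic minus wild type over all 8 arrays (horizontal axis), of the 10 genes (red) and the 46 further glutathione genes (blue) by role; the grey band spans the middle 50% of all 9607 genes, from -0.21 to 0.24, and the line is their median of 0.06. The 6 transferases lie to the right of the band and the 3 peroxidases and Gsr within it.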

How the data were processed

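Ventricular RNA (2 ug a mouse) was read on Mouse Genome 430 2.0 arrays, as the labels' protocols state. Values deposited by the authors are log2 and were made with GCRMA, per the submitters' processing notes (version not given in the sources used here), which corrects background by probe base composition and normalizes by quantiles. Of 45101 probe sets, 34945 that are no controls had 1 gene symbol, 932 had several and 9211 had none in the platform annotation. Updating symbols through Entrez identifiers changed 0. Probe sets above 5 in at least 4 arrays, whatever the group, were kept, then the brightest per gene. Groups came from sample titles. The fit used limma 3.58.1 under R 4.3.3, with eBayes and no block, with Benjamini-Hochberg adjustment over 9607 genes at 0.05; for the 10 genes exact permutation tests were also run. The labels name separate mice but no shared litter or batch. The fit was tested on simulated data. The genes and lists were chosen with earlier results of these data known. Beyond the 10 genes, the rule named, on each side of 0, the 3 listed genes of smallest p. Alternatives changed the filter, scaling, model, probe set rule, threshold and arrays. The number of arrays limits the precision.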

Additional observations from a re-analysis of the deposited data

Results flagged for a closer look

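For the 10 genes and the 6 further genes named by p, 32 groups of 4 arrays were checked for an array far from the others, and 3 were found, none of them in the 10 genes. Chance gives about 1 in 20 such groups. An array counted as far where its gap to the nearest other was above 0.829 of the range of the 4. Gpx3 in transgenic replicate 3 and Gpx4 in wild-type replicate 1 fell just short of that cut. Glrx was 9.30 in wild-type replicate 1 and between 8.89 and 8.94 in the other 3. Gpx8 was 9.86 in wild-type replicate 1, against 9.53 to 9.56. Slc25a40 was 6.003 in transgenic replicate 2, against 7.51 to 7.59.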

How the results depend on the processing

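No member was called under any filter, scaling, model, probe set rule or set of arrays tried. Limma with array weights called 1 gene of all, outside the lists, and at an unadjusted p of 0.05 there were 153 genes, 1 member and 1 further glutathione gene. Without transgenic replicates 2 and 3, the signs turned for Gstk1 (-0.086), Mgst3 (-0.11), Gpx3 (0.26), Slc25a40 (0.025) and Mafg (0.016); with array weights for Gpx3 (0.082), Gsr (-0.030) and Slc25a40 (0.0057). Leaving out single arrays gave -0.22 to 0.36 for Gpx1, -0.31 to 0.33 for Gpx3, -0.051 to 0.24 for Gsr and -0.53 to 0.0013 for Slc25a40. The cause was not tested. Same-numbered arrays correlated at 0.30, -0.0056, -0.33 and 0.20, too few values to show whether the replicate numbers paired the mice. With the number as a replicate block 0 members and 0 genes were called. In that fit 1 member had an unadjusted limma p under 0.05, as did 1.53% of all genes. The means of 9 of 10 members were higher, as were those of 57% of all genes.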
